A study of Homo sapiens with 12 samples.

Results

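CABLES1 lies on the plus strand of chromosome 18, from 20714528 to 20840434 of hg19, a span of 125907 nt. It encodes a protein that links cyclin-dependent kinases to tyrosine kinases. Signal of 3 RNA-binding proteins on this gene was read from 12 iCLIP libraries, taking every listed position between those bounds on the plus strand. The gene held 1068 of the 1162690 positions listed in all libraries. Within it, the 10 kb bin from 20790001 to 20800000 was chosen by its counts in wild-type cells, where the antibody against RBFOX2 (FOX2 in the labels) gave signal and TDP43 was listed at 0. That contrast is therefore a description, without a test.

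The libraries came from H9, an established human embryonic stem cell line. P-KO cells, whose source label also carries the name SPA, were compared with wild-type (WT) cells of the same line. Both were irradiated with ultraviolet light at 400 mJ per square centimetre, which joins proteins to the RNA they touch, and RNA was recovered with an antibody against FOX2, TDP43 or hnRNP M. Each protein had 2 libraries in P-KO cells and 2 in WT cells, called biological replicates in the series' design text. The groups were thus FOX2 P-KO, FOX2 WT, TDP43 P-KO, TDP43 WT, hnRNP M P-KO and hnRNP M WT. Whether the P-KO line is 1 clone is not given in the sources used here, and no library of input RNA was used. The amount of CABLES1 RNA was therefore not measured. Between P-KO and WT cells, more contact per RNA molecule and more RNA cannot be told apart. The tests between proteins were made within P-KO cells.

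FOX2 is a splicing regulator that recognises GCAUG-like elements, often in introns, and acts on exons according to whether it sits before or after them. TDP43 prefers GU-rich RNA and also binds far inside introns, where it represses the use of cryptic exons. hnRNP M is an abundant nuclear protein bound to pre-mRNA. CABLES1 itself, Cdk5 and Abl enzyme substrate 1, promotes inhibitory tyrosine phosphorylation of cyclin-dependent kinases through kinases such as Abl and Wee1, and has been studied as a candidate tumour suppressor.

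Values are window counts. Each listed position stands for a stretch of 11 nt, and overlapping stretches were reduced to the highest one so that no count entered more than once. Window counts per library ranged from 58191 to 648651, with the hnRNP M libraries shallowest. CPM stands for window counts per 1000000 of the library's total. As a check of the genotype labels, the stretch of chromosome 15 from 25 to 26 Mb on the plus strand, which holds the SPA RNAs, took 0.0530% to 0.160% of window counts in the 6 P-KO libraries, against 0.915% to 1.63% in the 6 WT libraries. Gaps of exactly 3 nt between listed positions were in excess in 5 of the 12 libraries, at 1.39 to 11.6 times the mean of gaps 1 nt shorter and longer. These were FOX2 WT replicate 2, TDP43 P-KO replicate 2, TDP43 WT replicate 2, hnRNP M P-KO replicate 2 and hnRNP M WT replicate 2. The 7 remaining libraries had ratios of 0.273 to 1.16. All 5 libraries with the excess were thus replicate 2, and no replicate 1 library had it. FOX2 P-KO replicate 2 was the only replicate 2 library without it. This trait therefore went with the replicate number, and whether libraries of the same number shared a batch was not tested.

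Over the whole gene, FOX2 had 335 and 1275 counts in P-KO cells and 167 and 512 in WT cells. TDP43 had 39 and 107 counts in P-KO cells and 66 and 51 in WT cells. hnRNP M had 17 and 20 counts in P-KO cells and 10 and 33 in WT cells. Each of the 4 FOX2 libraries thus stood above every TDP43 and hnRNP M library, and the ranges of TDP43 and hnRNP M did not overlap as counts. On the CPM scale the gene averaged 1704 ± 370 in FOX2 P-KO, 1268 ± 714 in FOX2 WT, 296 ± 98.7 in TDP43 P-KO, 249 ± 97.2 in TDP43 WT, 309 ± 49.2 in hnRNP M P-KO and 215 ± 74.2 in hnRNP M WT (SD, n = 2 each). In order, both FOX2 groups came first with overlapping libraries. Libraries of the other 4 groups lay between 162 and 366 CPM, in overlapping ranges except that both hnRNP M P-KO libraries were above both hnRNP M WT libraries.

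Most FOX2 signal lay in the chosen bin. FOX2 had 319 and 1169 counts there in P-KO cells, and 134 and 433 in WT cells. TDP43 had 8 and 8 counts in P-KO cells and was listed at 0 in both WT libraries. hnRNP M was listed at 0 and had 5 counts in P-KO cells, and was listed at 0 and had 3 in WT cells. Because positions under the authors' threshold are left out, a listed 0 sets no upper limit and no fold is given against it. FOX2 in the bin averaged 1588 ± 303 CPM in P-KO cells and 1056 ± 627 CPM in WT cells (SD, n = 2 each), against 36.8 ± 13.4 CPM for TDP43 and 43.0 ± 60.8 CPM for hnRNP M in P-KO cells. The 8 counts of each TDP43 P-KO library correspond to 0.00463% (95% Clopper-Pearson interval 0.00200 to 0.00913) and 0.00273% (0.00118 to 0.00539) of its window counts. For FOX2 P-KO the shares were 0.137% (0.123 to 0.153) and 0.180% (0.170 to 0.191). Such intervals hold counting error alone; amplified copies of a molecule would widen them.

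**Figure D1:**
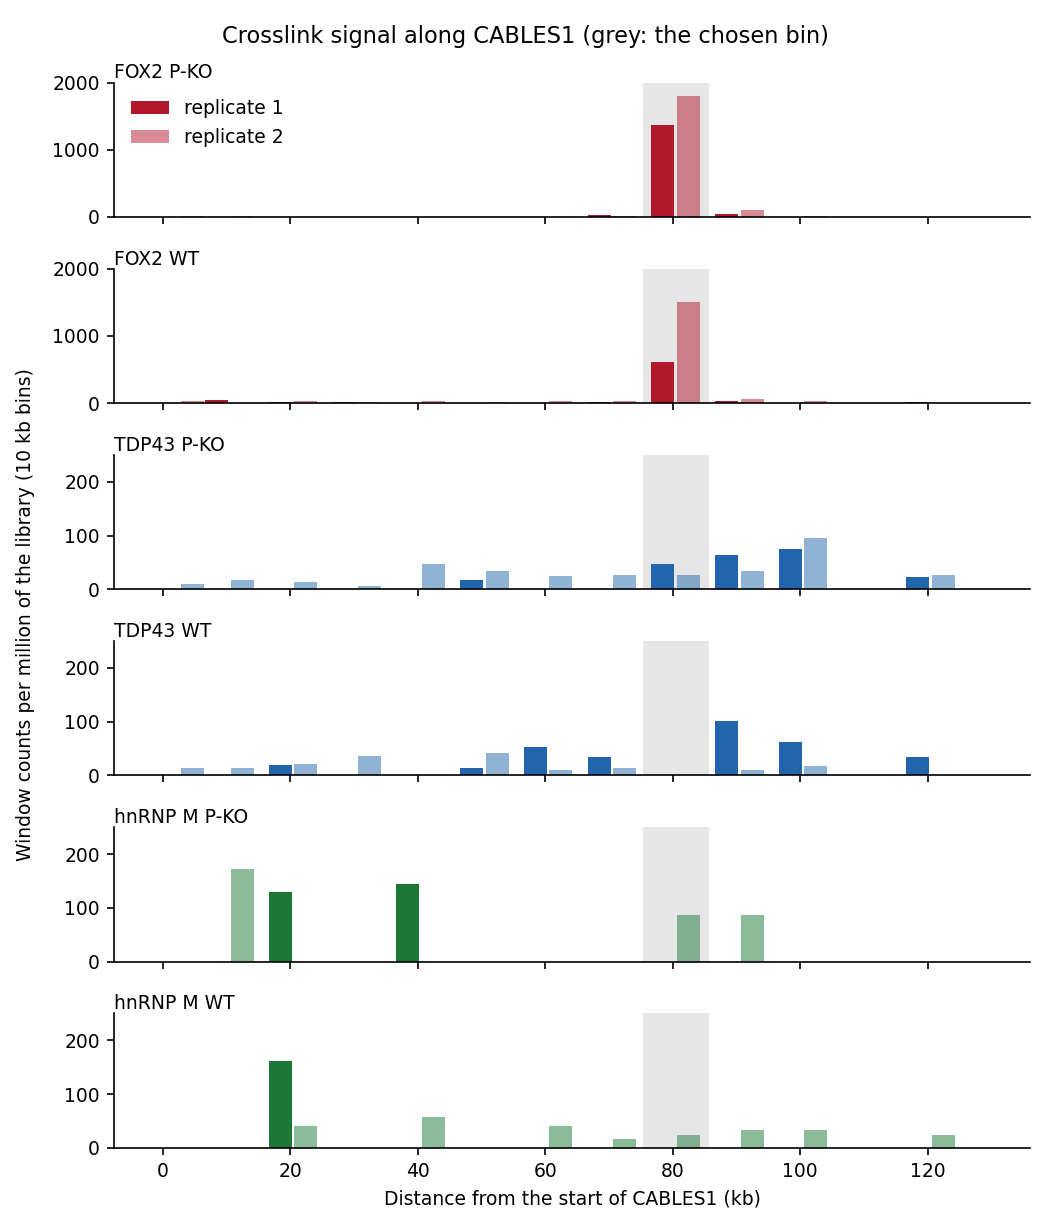
Window counts per 1000000 of the library in 10 kb bins along CABLES1, against the distance from the gene's start in kb, with a panel for each protein and genotype and a bar for each replicate; grey marks the chosen bin, and the vertical axis of the FOX2 panels reaches 8 times higher than the others. FOX2 stands at 1374 and 1802 CPM in P-KO cells and 613 and 1500 CPM in WT cells in the grey bin, while no TDP43 or hnRNP M bin exceeds 172 CPM.

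Of the counts of FOX2 on CABLES1, 95.2% and 91.7% lay in this bin in P-KO cells and 80.2% and 84.6% in WT cells. Both P-KO shares were above both WT shares, yet with 2 libraries against 2 the smallest two-sided exact permutation p is 0.333, so no test of this difference can pass. For TDP43 the shares in P-KO cells were 20.5% (95% Clopper-Pearson interval 9.30 to 36.5) and 7.48% (3.28 to 14.2). Counted as windows in place of counts, the bin held 35 of 39 and 59 of 80 FOX2 windows in P-KO cells, against 16 of 28 and 39 of 71 in WT cells. Per kb, FOX2 averaged 159 CPM in the bin and 1.00 CPM in the rest of the gene in P-KO cells, a ratio of 158. In WT cells the values were 106 and 1.83 CPM, a ratio of 57.7. The WT shares and ratio come from libraries that chose the bin and are a description.

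Among all 10 kb bins with signal, strand by strand, this bin ranked 43rd of 30712 and 32nd of 39183 by count in the FOX2 P-KO libraries. In the FOX2 WT libraries, whose counts chose the bin, it ranked 53rd of 40219 and 17th of 45179. The WT ranks thus only describe that choice. The median listed bin had 3 or 4 counts. In TDP43 P-KO it ranked 4071st of 31978 and 6443rd of 45223.

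The same proteins were compared in P-KO cells. This is not an independent repeat: the bin was picked from the WT libraries with results of the P-KO libraries known, and it passed the filter on low counts only through its FOX2 counts, the side on which it was chosen as high. FOX2 was above TDP43 in the bin by a log2 fold change of 5.85 (SE 1.67, n = 2 libraries each, edgeR quasi-likelihood test, adjusted p = 0.0359), and both FOX2 libraries exceeded both TDP43 libraries. The ratio of mean CPM was 43.1, resting on 16 TDP43 counts. Of 10563 tested bins, 173 passed (1.64%) and 156 were higher in FOX2 (1.48%), and the median log2 fold change of all tested bins was -0.40. The call was lost with the robust option of edgeR (adjusted p = 0.103), with a minimum of 20 counts in 2 libraries (0.0503), and without any one of the 4 libraries compared: the adjusted p was 0.300 without FOX2 P-KO replicate 1, 0.703 without FOX2 P-KO replicate 2, 0.712 without TDP43 P-KO replicate 1 and 0.841 without TDP43 P-KO replicate 2. In those 4 fits 1 group held a single library and was assumed to vary like the other groups. The filter let in 20753 to 21061 bins there, and the log2 fold change of the chosen bin stayed between 5.23 and 6.14. Among libraries without the excess of 3 nt gaps, FOX2 had 319 and 1169 counts in P-KO cells against 8 in TDP43 P-KO replicate 1, and with a term for the excess the log2 fold change was 6.49 (edgeR adjusted p = 0.0107). A first form of that term, which marked the 5 libraries with more 3 nt than 2 nt gaps (hnRNP M WT replicate 1 in place of TDP43 WT replicate 2), gave 6.38 and lost the call (edgeR adjusted p = 0.0516). Both groupings were defined after seeing the data, and the second was chosen with the value of the first known, so the call depends on which is used.

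Against hnRNP M in P-KO cells the log2 fold change of the bin was 7.25 (SE 1.81, n = 2 each, edgeR adjusted p = 0.00364). With 0 and 5 hnRNP M counts there, the bin passed the filter only through FOX2 here too, and the value carries the same limit. In this comparison 1032 of the tested bins passed (9.77%), 1029 of them higher in FOX2 (9.74%), and the median of all tested bins was 1.13, so the bin stood 6.12 above it. With library totals in place of TMM scaling 301 bins passed (2.85%), 220 higher and 81 lower in FOX2, that median was -0.24 and the bin's value 5.21 (edgeR adjusted p = 0.0147). The call was lost without FOX2 P-KO replicate 2 (adjusted p = 0.0556) and without hnRNP M P-KO replicate 1 (0.226). The robust option of edgeR, which lost the call against TDP43, was not run against hnRNP M. Comparisons with TDP43 and with hnRNP M share the FOX2 P-KO libraries. In WT cells the FOX2 libraries are those that chose the bin, and hnRNP M had 0 and 3 counts against their 134 and 433.

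**Figure D2:**
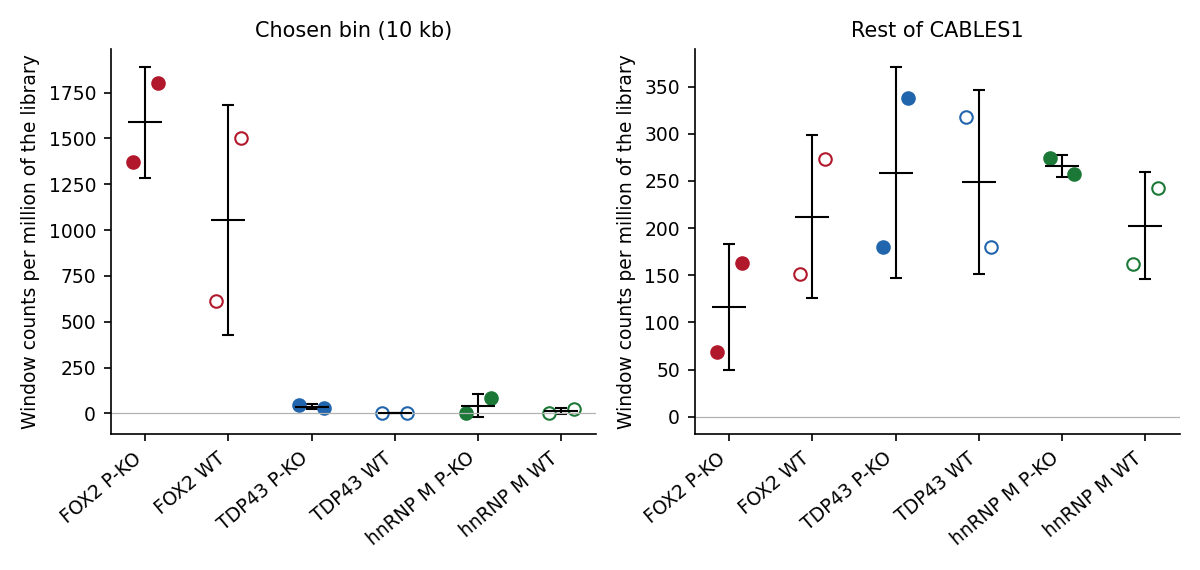
Window counts per 1000000 of the library in the chosen bin (left) and in the rest of CABLES1 (right); points are libraries, filled for P-KO and open for WT, and bars are the mean and SD of 2 libraries. FOX2 libraries lie between 613 and 1802 CPM in the bin, above the 0 to 85.9 CPM of the TDP43 and hnRNP M libraries, while in the rest of the gene FOX2 P-KO (68.9 and 163 CPM) overlaps FOX2 WT (151 and 274 CPM).

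Between genotypes, FOX2 in the bin did not pass. The log2 fold change of P-KO over WT was 0.71 (SE 1.35, n = 2 each, edgeR adjusted p = 1.00), and the WT range of 613 to 1500 CPM reached into the P-KO range of 1374 to 1802 CPM. The WT side had been chosen as high. In the same comparison 2 of 10563 bins passed (0.0189%), both lower in P-KO. FOX2 WT replicate 2 has the excess of 3 nt gaps and both FOX2 P-KO libraries do not. Without that library the log2 fold change was 1.64 (SE 2.02), and FOX2 WT replicate 1 then had 613 CPM against 1374 and 1802 CPM in P-KO. The log2 fold change was lower without any other library. It was 0.26 without FOX2 WT replicate 1, 1.13 without FOX2 P-KO replicate 1 and 0.22 without FOX2 P-KO replicate 2. The difference between the WT replicates leaves a wide range of genotype effects undetectable at this number of libraries.

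Inside the bin the FOX2 signal was narrow. The kilobase from 20798001 to 20799000 held 315 of 319 and 1068 of 1169 FOX2 counts in P-KO cells (98.7% and 91.4%), and 125 of 134 and 405 of 433 in WT cells (93.3% and 93.5%). The kilobases from 20790001 to 20791000 and from 20793001 to 20794000 had no listed position in any library. Per window, FOX2 counts averaged 9.11 and 19.8 in the bin in P-KO cells, against 3.84 and 5.76 over those libraries as a whole. In WT cells the means were 8.38 and 11.1 in the bin, against 2.76 and 2.93 over the libraries. Windows of 10 counts or more numbered 8 and 34 in the P-KO libraries and 4 and 13 in the WT libraries, so the signal was not carried by a single window. That number also follows the depth of the library. Neighbouring windows can belong to the same peak, and whether they are separate contacts was not tested.

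The windows with the most FOX2 counts summed over libraries lay within 289 nt of each other, all in intron 4 of transcript ENST00000400473.2 as the files label it. The highest, centred at 20798563, had 55 and 96 counts in P-KO cells and 29 and 58 in WT cells. The window at 20798541 had 9 and 95 counts in P-KO cells and 0 and 72 in WT cells, so it was strong in replicate 2 of both genotypes and weak or listed at 0 in replicate 1. The window at 20798325 had 18 and 63 counts in P-KO cells and 7 and 26 in WT cells. At 20798589 there were 35 and 61 counts in P-KO cells and 15 and 14 in WT cells, and at 20798300 there were 7 and 52 in P-KO cells and 8 and 21 in WT cells. All 5 windows were listed at 0 in every TDP43 and hnRNP M library.

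**Figure D3:**
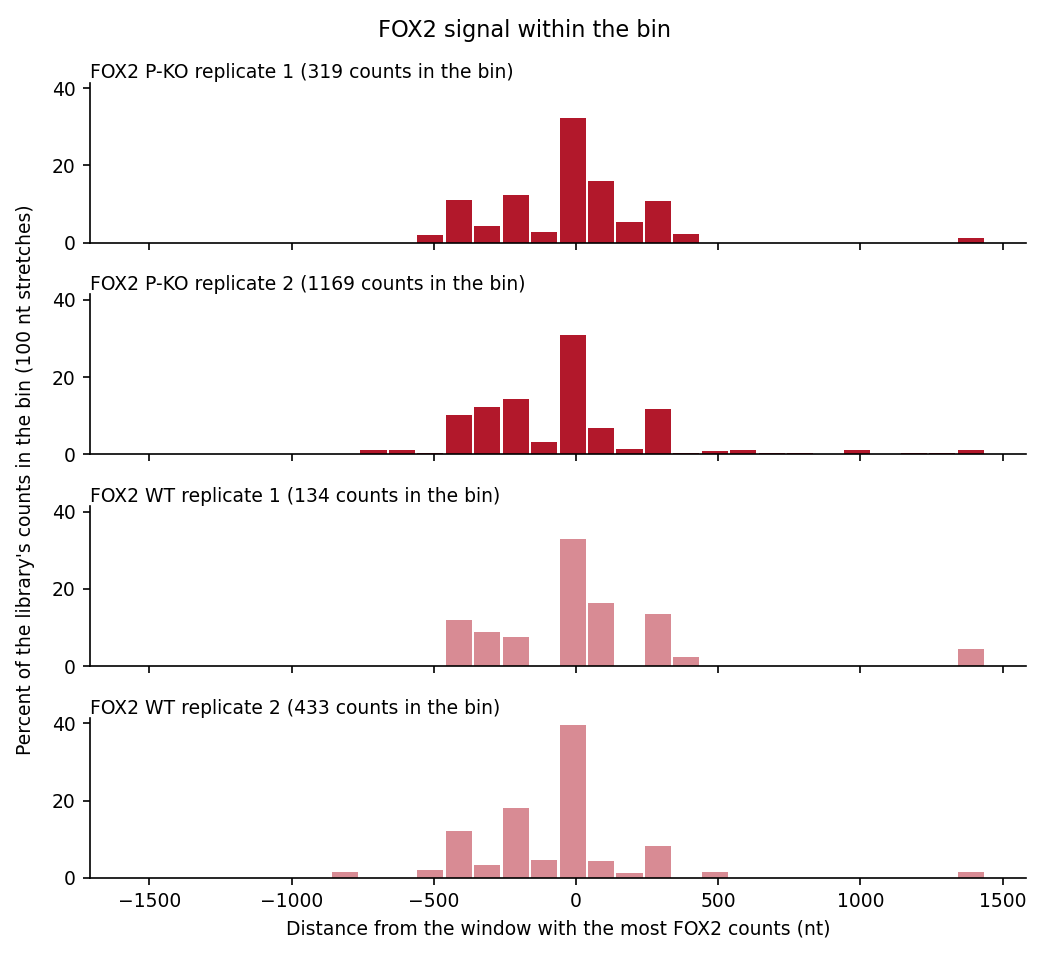
FOX2 counts in 100 nt stretches of the chosen bin, as a percent of each library's counts in the bin, against the distance in nt from the window with the most FOX2 counts; the P-KO libraries are above the WT libraries. All 4 libraries peak in the same stretch, with 32.3% and 31.0% of the bin's counts in P-KO cells and 32.8% and 39.5% in WT cells.

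The shape of this signal was alike in all 4 FOX2 libraries. In 100 nt stretches, the one from 20798501 to 20798600 held the most counts in each library, with 103 and 362 in P-KO cells and 44 and 171 in WT cells. Further stretches of high count lay upstream, at 20798301 to 20798400 (39 and 166 in P-KO, 10 and 78 in WT) and at 20798101 to 20798200 (35 and 119 in P-KO, 16 and 53 in WT), and downstream, at 20798801 to 20798900 (34 and 138 in P-KO, 18 and 36 in WT). Between pairs of FOX2 libraries, Pearson's r of these counts was 0.877 to 0.962 across the 26 stretches of the bin in which any of them had a count. Stretches share the gene and its sequence and are not independent, so the value is a description.

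Windows in the bin recurred between FOX2 libraries. Counts per position were summed over the 4 libraries and reduced to windows at least 11 nt apart, called merged windows. A library listed such a window if it had a position within 5 nt of its centre. Of 72 merged windows, 14 were listed in all 4 libraries, 18 in 3, 12 in 2 and 28 in 1. P-KO and WT cells shared 39 of the 72. Overlap between 2 libraries was read otherwise, from each library's own windows with centres less than 11 nt apart. Of the 35 windows of FOX2 P-KO replicate 1 in the bin, 32 overlapped one of FOX2 P-KO replicate 2 (91.4%), and 37 of the 59 of replicate 2 overlapped one of replicate 1 (62.7%). Between FOX2 WT replicates, 12 of 16 windows of replicate 1 (75.0%) and 15 of 39 of replicate 2 (38.5%) overlapped. Counts per window were also higher in the bin, and windows lay closer together there. FOX2 had 72 merged windows in its 10 kb, against 61 in the 115907 nt outside it. The part of count and spacing in the recurrence and overlap was not tested.

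In the rest of the gene windows seldom recurred. FOX2 had 61 merged windows outside the bin, of which 55 were listed in 1 library, 5 in 2 and 1 in all 4. TDP43 had 85, of which 78 were listed in 1 library, 6 in 2 and 1 in 3.

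**Figure D4:**
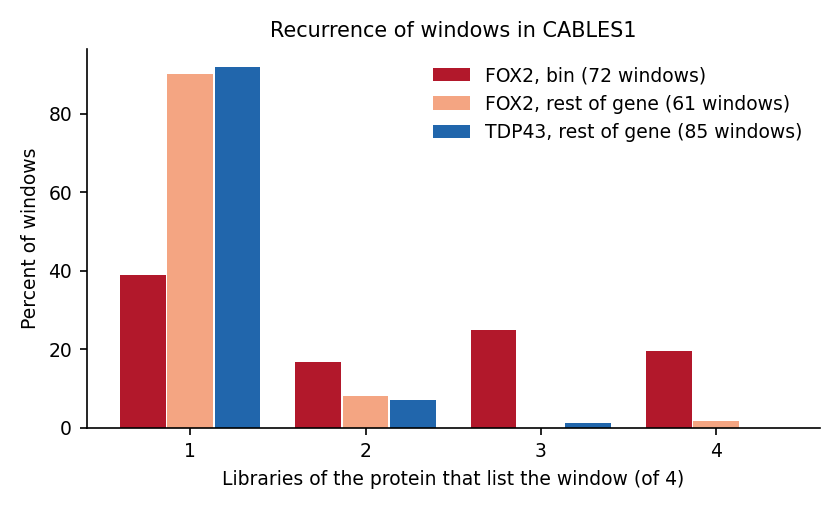
Percent of merged windows in CABLES1 by the number of libraries of the protein, of 4, that list them. In the bin 19.4% of FOX2 windows are listed in all 4 libraries and 38.9% in only 1, whereas outside it 90.2% of FOX2 windows and 91.8% of TDP43 windows are listed in 1 library.

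The single FOX2 window outside the bin that all 4 FOX2 libraries listed lay just past its edge, at 20800008, 1445 nt downstream of the highest window. It had 7 and 20 counts in P-KO cells and 4 and 6 in WT cells, and TDP43 had 2 and 0 there in P-KO cells and 3 and 0 in WT cells. The edge of the bin is a round coordinate, and the next bin, 20800001 to 20810000, had 10 and 70 FOX2 counts in P-KO cells and 8 and 19 in WT cells. On the other side, the bin from 20780001 to 20790000 had 6 and 7 FOX2 counts in P-KO cells and 3 and 8 in WT cells. FOX2 over TDP43 in P-KO cells gave a log2 fold change of 1.14 (SE 1.63, edgeR adjusted p = 0.781) in the next bin, where TDP43 had 11 and 10 counts. Of the gene's bins, 5 had enough counts to be tested. From 20810001 to 20820000 FOX2 had 0 and 12 counts in P-KO cells and TDP43 had 13 and 28. FOX2 over TDP43 gave -2.52 there (SE 1.92, edgeR adjusted p = 0.520). In the tested bins starting at 20730001 and 20750001 both FOX2 P-KO libraries were listed at 0, so no fold is given. TDP43 in P-KO cells had 0 and 4 counts in the first and 0 and 14 in the second.

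TDP43 and hnRNP M had scattered windows in the bin, which are listed in full. TDP43 P-KO replicate 1 had 3 counts at 20795507, 2 at 20797268 and 3 at 20799065. TDP43 P-KO replicate 2 had 2 counts at each of 20792426, 20794254, 20796678 and 20798791. hnRNP M P-KO replicate 2 had 5 counts at 20798341 and hnRNP M WT replicate 2 had 3 at 20797347. Of these 9 windows, 3 had their centre within 5 nt of a FOX2 window. At 20799065 FOX2 was listed at 0 in P-KO cells and had 0 and 4 counts in WT cells. The one at 20798341 had 7 and 55 FOX2 counts in P-KO cells and 0 and 21 in WT cells, and the one at 20798791 had 6 and 16 in P-KO cells and was listed at 0 in WT cells. The labels give replicate 2 of P-KO the same library barcode for all 3 proteins, and whether reads passed between these libraries was not tested.

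Outside the bin the 4 FOX2 libraries ranged from 68.9 to 274 CPM and the TDP43 and hnRNP M libraries from 162 to 338 CPM. The rest of the gene, 115907 nt, had 116 ± 66.8 CPM in FOX2 P-KO, 212 ± 86.8 CPM in FOX2 WT, 259 ± 112 CPM in TDP43 P-KO and 249 ± 97.2 CPM in TDP43 WT (SD, n = 2 each). hnRNP M had 266 ± 11.5 CPM in P-KO cells and 203 ± 57.0 CPM in WT cells. The FOX2 P-KO libraries, at 68.9 and 163 CPM, were both below the TDP43 P-KO libraries, at 180 and 338 CPM, but the difference did not pass. FOX2 over TDP43 in P-KO cells gave a log2 fold change of -0.60 (SE 0.85, edgeR adjusted p = 0.959), tested among 8512 stretches of the gene's length, of which 88 passed (1.03%), 84 of them higher in FOX2 (0.987%); with library totals 112 passed, 89 higher and 23 lower. FOX2 in P-KO over WT gave -0.27 (SE 0.85, edgeR adjusted p = 1.00), with 1 stretch passing (0.0117%), lower in P-KO. Both signs turned under other settings, so no direction is drawn from either value.

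The windows of highest TDP43 count in the rest of the gene were low. The one at 20811832 in intron 4 had 0 and 5 counts in P-KO cells and 3 and 0 in WT cells. The one at 20751355 in intron 1 had 0 and 7 in P-KO cells and was listed at 0 in WT cells, and the one at 20800939 in intron 4 was listed at 0 in P-KO cells and had 7 and 0 in WT cells. None was listed in both replicates of a group, and FOX2 was listed at 0 at all 3. For FOX2 the windows after the one at the bin's edge were at 20717899 in intron 1, with 0 and 4 counts in P-KO cells and 0 and 4 in WT cells, and at 20800255, in intron 4 of ENST00000579963.1, with 0 and 5 in P-KO cells and 0 and 3 in WT cells.

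The counts were intronic. All FOX2 and hnRNP M counts on the gene carried an intron label, as did 89.7% and 96.3% of TDP43 counts in P-KO cells and 92.4% and 100% in WT cells. Intron 4 of ENST00000400473.2 held 88.4% and 92.9% of the FOX2 counts on CABLES1 in P-KO cells and 85.0% and 80.3% in WT cells, and most of the remaining FOX2 counts in the bin carried the label of intron 4 of ENST00000579963.1, another transcript over the same stretch. TDP43 counts labelled with intron 4 of ENST00000400473.2 made up 82.1% and 13.1% in P-KO cells and 36.4% and 11.8% in WT cells. These shares depend on which transcript the files name, since others, such as ENST00000585061.1, are named over the same stretch. hnRNP M replicate 1 libraries had all their counts in intron 1, 17 counts in 2 windows in P-KO cells and 10 counts in 1 window in WT cells. Positions labelled with intron 4 of ENST00000400473.2 ran from 20794170 to 20814323. By position alone, that stretch held 32 of 39 and 42 of 107 TDP43 counts in P-KO cells (82.1% and 39.3%). In WT cells it held 34 of 66 and 6 of 51 (51.5% and 11.8%). The P-KO replicates were thus closer by position than by the transcript named, while the WT replicates were farther apart. FOX2 had 98.2% and 97.6% of its counts on the gene there in P-KO cells and 85.0% and 87.9% in WT cells. No hg19 annotation was used here, so the distance from the FOX2 windows to a splice site was not measured.

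Signal was on the sense strand. The opposite strand of the gene had at most 1 window of 2 counts in any library. A stretch of the same length just upstream had 2 and 5 FOX2 counts in P-KO cells and 3 and 3 in WT cells, and the one just downstream was listed at 0 in all libraries. The first listed position lay 2851 nt after the gene's start and the last 1272 nt before its end.

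Tested as a whole, the gene did not pass for FOX2 over TDP43 at the default settings, and hnRNP M was not tested against either over the whole gene. FOX2 over TDP43 in P-KO cells gave a log2 fold change of 3.02 (SE 0.79, n = 2 each, edgeR adjusted p = 0.0673), where 1.03% of stretches passed, 84 higher and 4 lower in FOX2, and the median of all stretches was -0.19. With library totals in place of TMM scaling 113 passed, 90 higher and 23 lower in FOX2. The whole gene holds the chosen bin, so this value carries its limit. The value was on the passing side with DESeq2 (adjusted p = 0.00117) and in 9 of the other 13 alternatives, and its direction held in all 14. Between genotypes the gene's log2 fold changes were 0.95 for FOX2 (SE 0.74), 0.17 for TDP43 (SE 0.75) and 0.10 for hnRNP M (SE 0.79), each with an edgeR adjusted p of 1.00. Of 8512 stretches 1, 1 and 0 passed (0.0117%, 0.0117% and 0%), and for hnRNP M 1398 were at an unadjusted p under 0.05 by edgeR while DESeq2 called 84. Whether the genotype effect differed between the proteins was not tested.

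**Figure D5:**
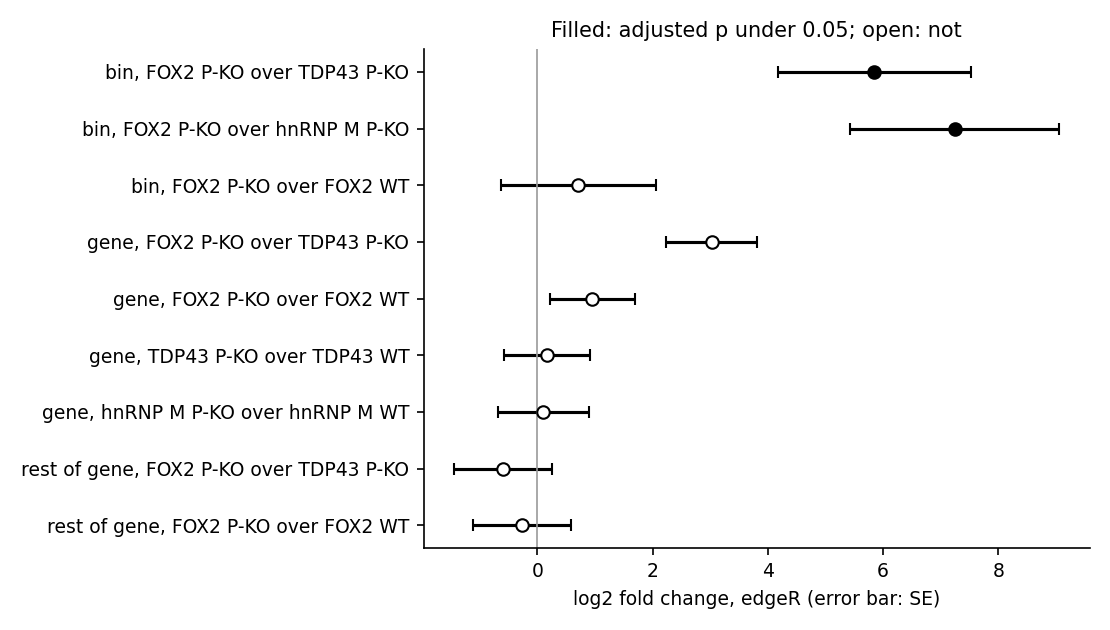
Log2 fold changes from edgeR for the chosen bin, the whole gene and the rest of the gene, with bars of 1 SE; filled points have an adjusted p under 0.05. Only the FOX2 comparisons with TDP43 and hnRNP M in the bin are filled, at 5.85 and 7.25, and the genotype comparisons lie between -0.27 and 0.95. The bin was chosen as high in FOX2 and passed the filter on low counts only through FOX2, so the filled points are not an independent result.

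Pooled over the 3 proteins, the share of the gene did not pass between genotypes. Its WT values include the bin's counts that the choice used, high for FOX2 and a listed 0 for TDP43. The share of window counts on CABLES1 was higher in P-KO by 0.45 on the log2 scale on average (exact permutation test with genotype permuted within each protein, two-sided, p = 0.130, where the smallest possible p is 0.00926). By protein it was 0.53 (FOX2), 0.26 (TDP43) and 0.55 (hnRNP M). With the bin left out, which was added after seeing the data, the mean difference was -0.15 (exact permutation, two-sided, p = 0.722), with FOX2 at -0.93, TDP43 at 0.046 and hnRNP M at 0.42, so no direction is drawn. Over the whole gene, libraries of the genotypes overlapped for FOX2 and TDP43, while both hnRNP M P-KO libraries were above both hnRNP M WT libraries, at 274 and 344 against 162 and 267 CPM, on 17 and 20 against 10 and 33 counts.

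Bins elsewhere with the most similar pattern over the 12 libraries were named by Pearson's r of log2 CPM, which the depth and scaling of the same libraries also shape. The closest was 48660001 to 48670000 of chromosome 3, minus strand (r = 0.992), with 257 and 712 FOX2 counts in P-KO cells, 63 and 122 in WT cells, 5 and 7 for TDP43 in P-KO cells and a listed 0 in both TDP43 WT libraries. The next were 840001 to 850000 of chromosome 5, minus strand (r = 0.980), with 87 and 384 FOX2 counts in P-KO cells and 50 and 105 in WT cells, and 1070001 to 1080000 of chromosome 7, minus strand (r = 0.979), with 156 and 568 in P-KO cells and 65 and 106 in WT cells. Of the 10558 tested bins outside CABLES1, 452 had an r of 0.9 or more, so many bins had a like pattern across libraries.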

How the data were processed

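Bowtie and the build GRCh37 (hg19) are named in the submitters' processing notes; the version of Bowtie and the tool that called positions were not given in the sources used here. Each library's list, as deposited by the authors, holds positions with a whole-number count, never under 2, and a p-value or q-value never above 0.05. Whether counts are reads or collapsed cDNAs is not stated. Windows were kept from the highest count downwards, at least 11 nt apart. The bin, the gene and the lists were chosen with earlier results of these data known.

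Counts per strand-specific 10 kb bin, and per stretch of the gene's length with and without the bin, were fitted over all 12 libraries with edgeR 4.0.16 in R 4.3.3 (filterByExpr, TMM, quasi-likelihood test, Benjamini-Hochberg adjustment, threshold 0.05), tested on simulated counts. The simulation recovered the sizes of the differences put in, but at these group sizes only very large ones were called; its sizes were raised after smaller ones gave no calls. SEs are the log2 fold change over the root of F. DESeq2 1.42.0 was an alternative; 2 forms of a term for 3 nt gaps were added after seeing the data, the second after the result of the first was known. The gene's share without the bin was also added then. Python 3.11.15 and scipy 1.17.1 were also used. Named windows were the 5 highest of FOX2 in the bin and the 3 highest of FOX2 and of TDP43 outside it, by summed count. Named bins were those of the gene with signal and the 3 most alike elsewhere. No pathway list was placed on hg19.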

Additional observations from a re-analysis of the deposited data

How the results depend on the processing

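The FOX2 over TDP43 difference of the bin in P-KO cells was positive in all 15 alternatives (2.71 to 7.97) and lost its call in 7: with a term for the libraries with more 3 nt than 2 nt gaps (6.38), with at least 20 counts in 2 libraries (4.75), with the robust option (5.85), and without any one library of the groups compared (5.23 to 6.14), where each arm that lost a library was assumed to vary like the other groups. Against hnRNP M it was positive in all 14, among which the robust option was not run. In both comparisons the bin was chosen as high in FOX2 and passed the filter on low counts only through FOX2. The signs that held are therefore a description and not support. Without hnRNP M P-KO replicate 2, the hnRNP M P-KO library left was listed at 0 in the bin. The 12.0 of that fit is therefore not read as a fold. The other alternatives gave 4.06 to 9.43, and 6.65 to 7.89 where a library was left out. For the whole gene, FOX2 over TDP43 passed in 10 of 14 alternatives: library totals (2.52), at least 20 counts (2.90), no filter (3.01), the replicate block (3.03), the term for an excess of 3 nt gaps (3.47), that for more 3 nt than 2 nt gaps (3.59), all listed positions summed (4.86), DESeq2 (3.15), only the groups compared (3.10) and without FOX2 P-KO replicate 1; leaving out a library gave 2.62 to 3.59. FOX2 in P-KO over WT kept its sign and missed the threshold in all 14 alternatives, for the bin (0.07 to 1.80) and for the gene (0.43 to 1.80), with 0.22 to 1.64 and 0.53 to 1.80 when a library was left out.

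Signs turned only in values that never passed. TDP43 on the gene was -0.034 with the replicate block, -0.029 with the term for an excess of 3 nt gaps, -0.40 with that for more 3 nt than 2 nt gaps, and -0.38 to 0.60 with a library left out; hnRNP M was -0.54 to 1.10 with a library left out. In the rest of the gene FOX2 over TDP43 was 0.14 with all positions summed and -1.57 to 0.17 with a library left out. FOX2 in P-KO over WT there was 0.37 with all positions summed, 0.10 with the term for an excess of 3 nt gaps, 0.21 with that for more 3 nt than 2 nt gaps, and -1.26 to 0.47 with a library left out. DESeq2 gave no adjusted p for this one. The share of the gene did not pass in any of 17 alternatives; it was -0.15 with the bin left out (p = 0.722 by exact permutation) and 0.25 to 0.65 on the log2 scale in the others (p = 0.0556 to 0.306). The share of FOX2 counts of CABLES1 in the bin was 93.5% ± 2.50 in P-KO cells and 82.4% ± 3.06 in WT cells (SD, n = 2 each). Taken over the 4 FOX2 libraries of both genotypes, the mean was 87.9%. That mean was 68.9% by the number of windows and 95.7% with all listed positions summed. The cause of these shifts was not tested.

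Counts of passing bins moved with the settings: 0 to 1458 around 173 for FOX2 against TDP43, 0 to 1305 around 1032 for FOX2 against hnRNP M, and 0 to 16 around 2 between genotypes of FOX2; passing stretches of the gene's length ranged from 0 to 380 around 88 for FOX2 against TDP43 and from 0 to 381 around 88 without the bin. Replicate numbers were not paired. Deviations of same-numbered libraries correlated by 0.00776 to 0.132 between groups. Apart from the whole-gene value above, the replicate block changed no call. With 2 libraries per group and hnRNP M totals of 58191 to 123482, small differences are not detectable.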
